A study of Gallus gallus with 6 samples.

Results

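MHC class II molecules carry peptides from swallowed or secreted proteins to the surface of a cell, where CD4 T cells read them. Their expression was followed here through 10 genes in chicken ileum, the stretch of small intestine before the caeca. The tissue came from male Taiping chickens aged 2 months. One group, MP, drank water with 2 mL of probiotics per litre on top of a corn and soybean basal diet, and the other, CT, had the basal diet alone (0 mL per litre). Each group held 3 libraries, and the study compared ileal gene expression with and without the supplement. The genes were taken by name from a table of 17623 genes: 8 by symbol (Ii, BLB1, BLB2, DMB1, DMB2, CTSS, IFI30 and RFX5), and 2 by NCBI gene number, because the table writes DMA as MHCDMA and gives CIITA no symbol. No member had a second row of the same symbol.

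In the pathway, an alpha and a beta chain are assembled around the invariant chain (Ii, also called CD74), which blocks the peptide groove and steers the complex to endosomes. There proteases cut the invariant chain, and the DM molecule exchanges its last fragment for a peptide. Transcription of the whole set depends on the co-activator CIITA, docked on a DNA-bound complex that contains RFX5. In chickens the BLB1 and BLB2 beta chain genes lie in the compact MHC. Earlier work in this species describes BLB2 with DMB2 as the pair of blood-derived presenting cells, and BLB1 with DMB1 as a pair used in the intestine. The class II alpha chain gene was not analysed here.

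The table gives 1 value per gene and group, the authors' mean of 3 libraries, in FPKM (fragments per kilobase of transcript, scaled to depth) and as an estimated count. No spread between birds can be derived from it, so no difference below has a replicate check and no p-value is given. Where an interval follows a count ratio, it is an exact 95% interval that covers counting error only; PCR reads without molecular identifiers are not independent molecules. Mean counts summed to 15928865 per library in MP and 17150865 in CT. In bulk tissue such as this, fewer cells of a type and less RNA per cell cannot be told apart.

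In levels per length, the members spanned more than 4 orders of magnitude and stood in the same order in MP and in CT. Ii was far above the rest, at 5151 FPKM in MP and 5958 FPKM in CT, the 4th highest level of all genes in each group. BLB1 followed at 979 FPKM in MP and 908 in CT, then BLB2 at 653 and 775. After them came the protease gene CTSS, with 455 FPKM in MP and 422 in CT, and DMA with 368 and 293. IFI30 stood at 202 FPKM in MP and 210.5 in CT. The DM beta genes lay lower, DMB2 with 135 FPKM in MP and 119 in CT, and DMB1 with 86.7 and 70.6. The regulators were lowest, CIITA at 14.7 FPKM in MP and 17.2 in CT, and RFX5 at 0.443 and 0.293. Whether neighbours in this order differ beyond their spread between birds could not be examined. The members together took 1.49% of the summed FPKM of all genes in MP and 1.69% in CT, and Ii alone made up 64.0% of their summed FPKM in MP and 67.9% in CT.

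**Figure D1:**
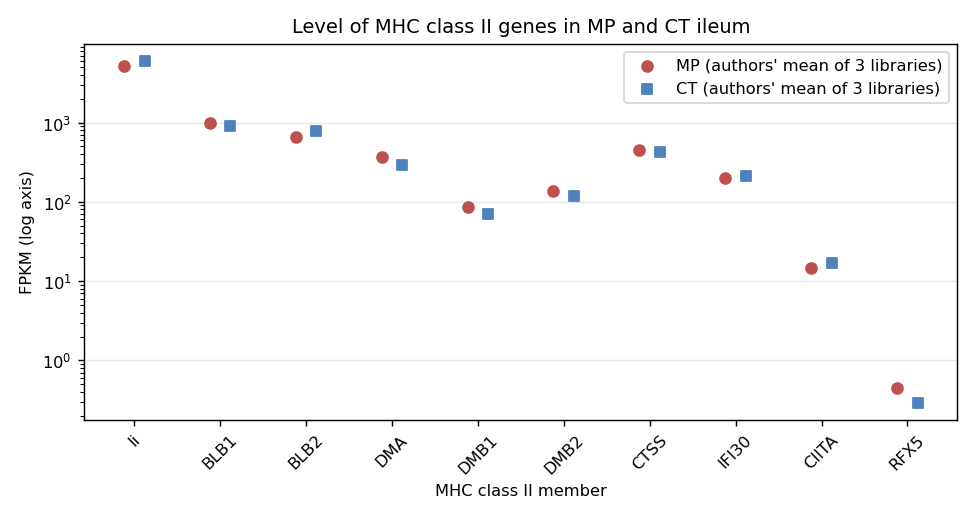
FPKM on a log axis for each of the 10 class II genes, with the MP mean as a red circle and the CT mean as a blue square; each point is the authors' mean of 3 libraries and has no error bar. Ii sits highest at 5151 FPKM in MP and 5958 in CT, and RFX5 lowest at 0.443 and 0.293.

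Between the groups the class II genes other than RFX5 differed by less than 1.5-fold, some higher and some lower in MP. Taken as log2(FPKM + 1) in MP minus that in CT, the 9 members that reached 5 FPKM in MP or CT ran from -0.25 for BLB2 to 0.33 for DMA, with a median of 0.11. All 9913 genes at that minimum had a median of -0.07, with quartiles at -0.20 and 0.10; 5 members lay above the upper quartile, 3 below the lower one and 1 between. The DM genes, BLB1 and CTSS lay higher in MP (5 of 9), while Ii, BLB2, CIITA and IFI30 lay lower (4 of 9). Of all genes, 37.8% were higher and 62.2% lower. IFI30 turned to 0.02 with median-of-ratios scaling, the only one of the 9 to change side under any scaling; that scaling put 50.9% of all genes higher and 49.1% lower, and equal FPKM totals put 29.7% higher and 70.3% lower.

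A log2 difference of at least 0.32 was reached by 1 member higher in MP, DMA (0.27 with equal FPKM totals), and by 0 members lower. The background shares at that threshold were 8.02% higher and 9.58% lower, so that 45.6% of such genes were on the higher side. That side held 66.5% under median-of-ratios scaling, 59.7% under upper-quartile scaling and 29.4% once FPKM totals were made equal. At 1.5-fold the counts were 0 members higher and 0 lower, against 2.56% and 1.53% of all genes. Without DMA and CIITA, which the symbols did not find, 0 of 7 members reached 0.32 in either direction.

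**Figure D2:**
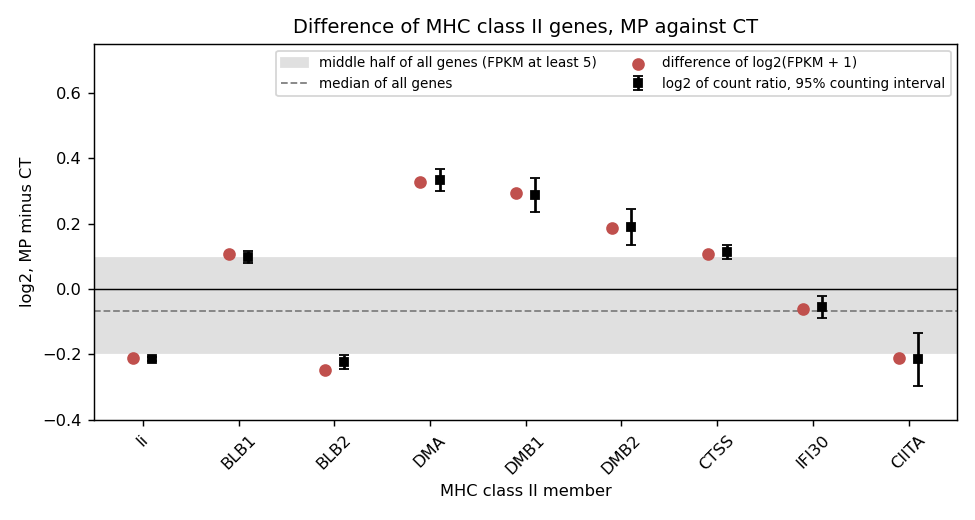
Difference between MP and CT for the 9 class II genes with FPKM of at least 5, in log2; red circles are differences of log2(FPKM + 1), and black squares are log2 count ratios scaled to depth with 95% counting intervals. The grey band runs from -0.20 to 0.10, the quartiles of all genes, with the dashed line at their median of -0.07; DMA, DMB1 and DMB2 lie above the band, BLB1 and CTSS at its upper edge, and Ii, BLB2 and CIITA just below it.

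Among the presenting chains and their escort, Ii and BLB2 were lower in MP and BLB1 was slightly higher. Ii, the invariant chain, differed by -0.21 in log2, with a depth-scaled count ratio of MP to CT of 0.863 (0.859 to 0.866). Its difference lay at the 22.6 percentile of all genes with FPKM of at least 5. BLB2 differed by -0.25 in log2, with a count ratio of 0.857 (0.844 to 0.870), at the 17.1 percentile. BLB1 differed by 0.11, with a count ratio of 1.07 (1.06 to 1.08), at the 76.3 percentile. The Ii level was 3.16 times the summed FPKM of both beta chain genes in MP and 3.54 times in CT.

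The beta chain total was close in both groups, while its split between BLB1 and BLB2 was not. BLB1 and BLB2 together had 1632 FPKM in MP and 1683 FPKM in CT, a ratio of 0.970. BLB1 held 60.0% of that sum in MP and 53.9% in CT, so the BLB1 level was 1.499 times that of BLB2 in MP and 1.17 times in CT. In counts, BLB1 held 63.3% of the reads of the pair in MP (63.0% to 63.6%, exact Clopper-Pearson interval) and 58.0% in CT (57.7% to 58.3%). BLB1 and BLB2 are closely related copies, and reads that match both may have been divided between them. Their mean counts, multiplied by 3, were not whole numbers in either group (within 0.002), whereas those of Ii, CTSS, IFI30, CIITA and RFX5 were whole in both. The part of shared reads in the shift between BLB1 and BLB2 was not tested, and individual values of these genes are uncertain to that extent.

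**Figure D3:**
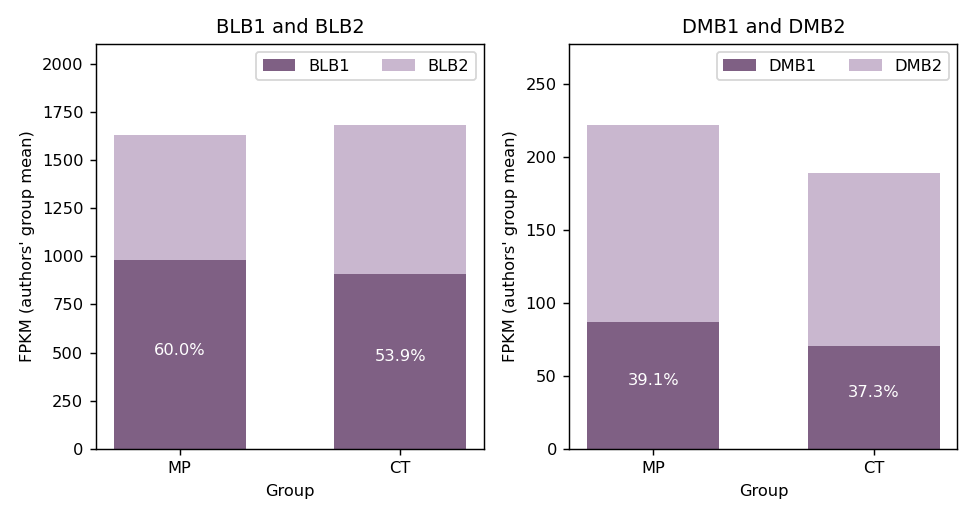
Stacked FPKM of BLB1 and BLB2 (left) and of DMB1 and DMB2 (right) in MP and CT, as the authors' group means without error bars; the percentage printed in each bar is the share of the lower segment. BLB1 holds 60.0% of its pair in MP and 53.9% in CT at nearly equal totals, while DMB1 holds 39.1% and 37.3% of totals of 222 and 189 FPKM.

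The peptide exchange genes were the members with the highest differences. DMA, the DM alpha chain gene, had a log2 difference of 0.33 and a count ratio of 1.26 (1.23 to 1.29), at the 92.2 percentile of all genes. DMB1, a DM beta chain gene, lay at 0.29 with a count ratio of 1.22 (1.18 to 1.26), at the 90.7 percentile. DMB2, the other DM beta chain gene, lay at 0.19 with a count ratio of 1.14 (1.10 to 1.18), at the 83.8 percentile. All 3 stayed higher in MP under each scaling tried. DMA exceeded the sum of its beta partners in both groups, 1.66 times in MP and 1.55 times in CT. The level of DMB1 was 0.642 times that of DMB2 in MP and 0.595 times in CT. The summed DM level came to 0.362 of the summed beta chain level in MP and 0.287 in CT. The counts of DMA, DMB1 and DMB2 were likewise not whole when multiplied by 3, so reads divided between overlapping or similar genes may enter these values too.

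Of the endosomal enzymes, CTSS, the cathepsin that makes the late cuts in the invariant chain, differed by 0.11 in log2 with a count ratio of 1.08 (1.06 to 1.10). IFI30, a thiol reductase that opens disulfide bonds of antigens, differed by -0.06 with a count ratio of 0.962 (0.940 to 0.986). CTSS lay at the 76.2 percentile of all genes and IFI30 at the 51.7 percentile. Other lysosomal genes went both ways. Of 12 measured genes for lysosomal proteases and endosomal proteins, 6 were higher and 6 lower in MP, with a median of 0.03 in log2 (-0.02 with equal FPKM totals). The 12828 genes that reached 1 FPKM in MP or CT had a median of -0.07, with 37.7% higher and 62.2% lower. Cystatin C, CST3, an inhibitor of cathepsins, had 551 FPKM in MP and 449.6 in CT. CTSB had 362 and 317 FPKM, and CTSZ 279 and 228. The legumain gene LGMN, an asparagine-specific protease, was at 223 FPKM in MP and 278 in CT. CTSC, which activates granule proteases, was past 1.5-fold lower, at 64.7 FPKM in MP and 99.7 in CT, a count ratio of 0.650 (0.630 to 0.669).

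The master regulator CIITA and the DNA-bound factors were slightly lower in MP or close to CT. CIITA had 2221 reads over the 3 MP libraries and 2775 over the 3 CT libraries, a depth-scaled ratio of 0.862 (0.815 to 0.912) and a log2 difference of -0.21, at the 22.2 percentile. RFX5, the DNA-binding subunit of the RFX complex, had only 17 reads over the MP libraries and 12 over the CT libraries. Its ratio of 1.53 had an interval of 0.687 to 3.50, so no difference was detectable at this depth. The other RFX subunit genes were far more abundant: RFXAP had 35.3 FPKM in MP and 36.2 in CT, and RFXANK, named beside RFXAP for the comparison with RFX5, 8.59 and 8.06. Of 6 genes for factors that act with RFX5 on class II promoters, 1 was higher and 5 lower in MP (median -0.06). Of all genes that reached 1 FPKM, 37.7% were higher and 62.2% lower (median -0.07). With median-of-ratios scaling 3 were higher and 3 lower (median 0.01), where 50.9% of all genes with FPKM of at least 5 were higher. NFYA, a subunit of the CCAAT-binding factor, was at 20.4 FPKM in MP and 24.1 in CT, a log2 difference of -0.23. The genes NFYC and NFYB of the same factor differed less, by -0.02 and -0.09.

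Genes upstream of CIITA were higher in 4 and lower in 7 of 11 measured (median -0.14). With equal FPKM totals 2 were higher and 9 lower, where 29.7% of all genes with FPKM of at least 5 were higher. The 4 to 7 split is near that of all genes that reached 1 FPKM, of which 37.7% were higher and 62.2% lower. The cytokine receptor kinase gene JAK1 had 80.5 FPKM in MP and 106 in CT, a count ratio of 0.762 (0.746 to 0.779). IRF1, a transcription factor that acts on a CIITA promoter in mammals, stood at 143 FPKM in MP and 139 in CT, and IRF8 at 156 and 146. Of 11 genes in this group 0 passed 1.5-fold in either direction. Few genes did at all: 368 higher and 253 lower of the 12828 that reached 1 FPKM.

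On the surface side, the genes for turnover of class II (MARCH1 and MARCH8, ubiquitin ligases that remove it, and CD83, which opposes MARCH1) were lower in MP for 3 of 3, with a median of -0.20, where 62.2% of all genes were lower. MARCH8 had 13.3 FPKM in MP and 15.5 in CT. Genes of T cells and presenting cells that meet class II were higher in 3 and lower in 7 of 10 (median -0.13). That was near the 37.7% higher and 62.2% lower of all genes. With median-of-ratios scaling 4 were higher and 6 lower, where 50.9% of all genes with FPKM of at least 5 were higher. CD4, the co-receptor for class II, had 9.87 FPKM in MP and 15.3 in CT, a count ratio of 0.656 (0.608 to 0.708). CD40LG, through which helper T cells activate presenting cells, had 9.29 FPKM in MP and 15.3 in CT, a count ratio of 0.608 (0.536 to 0.689). CD40, its receptor, stood at 14.9 FPKM in MP and 13.4 in CT.

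Class II is made by B cells, macrophages and dendritic cells and, in the gut, also by epithelium, so markers of these cells are given beside the members. Of all genes that reached 1 FPKM in MP or CT, 37.7% were higher in MP and 62.2% lower (median -0.07). B cell markers summed to 85.9 FPKM in MP and 86.7 in CT, with 4 of 10 genes higher and 6 lower, near that split. Macrophage and dendritic cell markers summed to 388 FPKM in MP and 391 in CT, with 8 of 15 higher and 7 lower. Their medians were -0.04 and 0.00 in log2, and both changed sign in some scalings, to 0.03 for B cells with median-of-ratios scaling and to -0.05 for macrophages and dendritic cells with equal FPKM totals. Of 10 epithelial genes 7 were higher and 3 lower (median 0.12). With equal FPKM totals 6 were higher and 4 lower, where 29.7% of all genes with FPKM of at least 5 were higher. The epithelial genes summed to 5768 FPKM in MP and 6820.3 in CT. Of these sums FABP6, the ileal bile acid binding protein, had 2669 and 4081. FABP6 differed by more than the sum did, so the sum does not follow most genes of the list. ELF3 was past 1.5-fold higher, with 277 FPKM in MP and 179 in CT. KRT20 had 564 FPKM in MP and 414 in CT, and VIL1 405 and 325. General leukocyte genes summed to 482 FPKM in MP and 569.6 in CT, with 1 of 6 higher. T and natural killer cell genes summed to 1611 FPKM in MP and 1806 in CT, and 11 of 11 were lower. Smooth muscle genes summed to 2326 FPKM in MP and 3452 in CT, and endothelial genes to 111 and 135, with 8 of 8 lower in each list under every scaling tried. No marker found was at 0 in both groups. The part of these cell types in the class II differences was not tested.

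**Figure D4:**
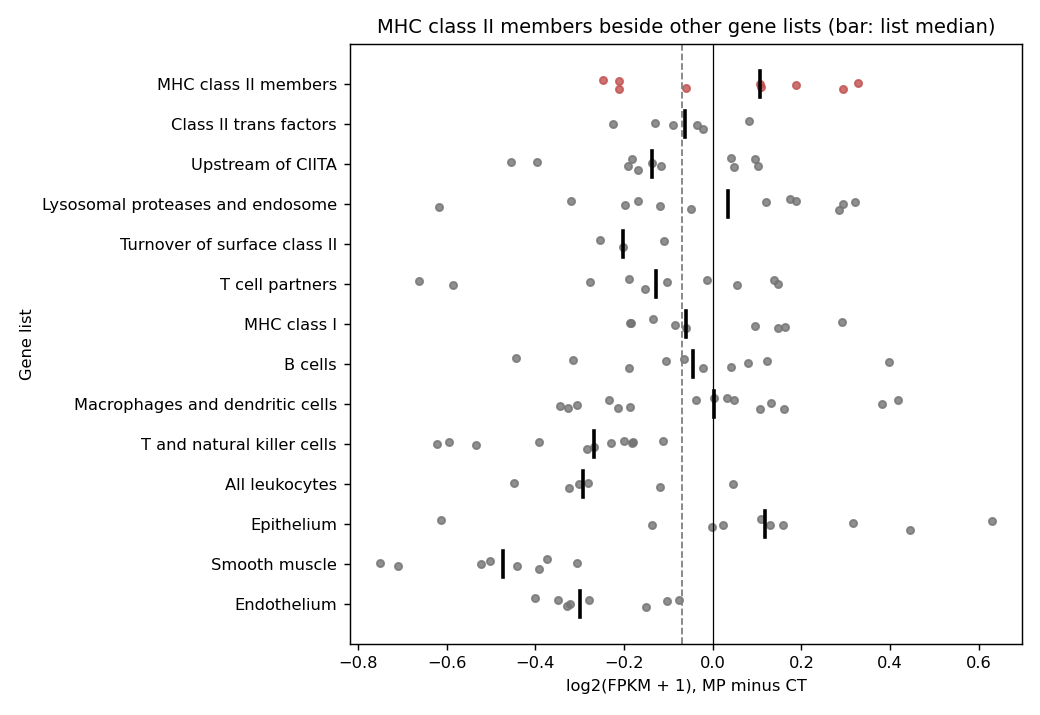
Difference of log2(FPKM + 1), MP minus CT, for each measured gene (points) in the class II set (top row, red) and in 13 other gene lists (grey), with list medians as black bars and the median of all genes, -0.07, as a dashed line. The class II members run from -0.25 to 0.33 around a median of 0.11, while all 8 smooth muscle and all 8 endothelial genes lie below 0.

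MHC class I is the sister pathway that shows peptides from inside the cell to CD8 T cells. Of its 9 measured genes 4 were higher and 5 lower in MP (median -0.06). That was near the 37.7% higher and 62.2% lower of all genes that reached 1 FPKM (median -0.07). With median-of-ratios scaling 5 were higher and 4 lower (median 0.01), where 50.9% of all genes with FPKM of at least 5 were higher. B2M, the light chain of class I, had 4904 FPKM in MP and 4425 in CT, the level nearest to that of Ii among all genes with a symbol. The distance was 0.43 in log2, taken over the 2 group means. COII of mitochondrial DNA and the translation factor gene EEF1A1 came next, at distances of 0.65 and 0.78. For CIITA the nearest levels were those of FAM214A, CSTF1 and KMT5B, all within 0.01.

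The BLB and DM genes share a position as well as a pathway. In the order of RefSeq's gene table (assembly GRCg7b, used for names and order only), 11 protein-coding genes run from BLB1 to BF2, of which 9 were measured here. Of these, 7 were higher in MP and 2 lower, under each scaling tried, where 37.8% of all genes with FPKM of at least 5 were higher (29.7% to 50.9% between scalings). This split is not separate from the counts above, and the stretch was chosen after the values were seen. BLB1, BLB2, DMA, DMB1 and DMB2 are members, and TAPBP, BF1 and BF2 were in the class I list. Only BRD2 had not been counted before. A role of position was not tested. BLB2 and its neighbour BRD2, a chromatin reader, were the lower genes, BRD2 with 118 FPKM in MP and 134 in CT and a count ratio of 0.883 (0.865 to 0.901). TAPBP, the class I chaperone tapasin, lies between BLB1 and BLB2 and had 433 FPKM in MP and 387 in CT, a count ratio of 1.12 (1.10 to 1.14). The class I heavy chain gene BF2, at the other end, had 2203 FPKM in MP and 1800.4 in CT, with a count ratio of 1.22 (1.21 to 1.23). BF1, next to DMB2, had 1174 and 1099.6 FPKM with a count ratio of 1.01 (1.01 to 1.02). In log2 the BF1 difference was 0.09 by FPKM, but only 0.01 to 0.03 by the counting interval of the depth-scaled counts. TAPBP and BRD2 had whole counts when multiplied by 3, and the other 7 did not. Ii, CTSS, IFI30, CIITA and RFX5 lie outside this stretch.

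**Figure D5:**
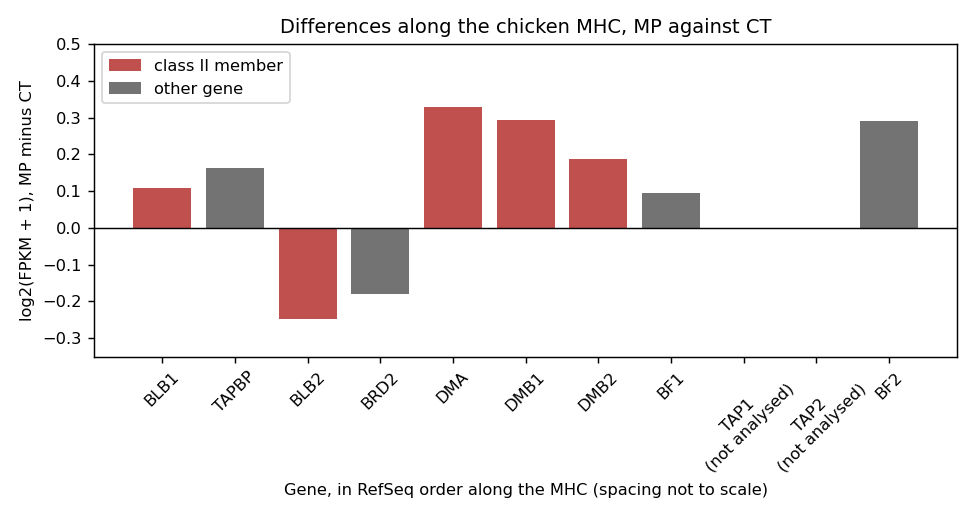
Difference of log2(FPKM + 1), MP minus CT, for genes in RefSeq order from BLB1 to BF2, with class II members in red and other genes in grey; spacing is not to scale, and bars are group means without error bars. BLB2 at -0.25 and BRD2 at -0.18 are the bars below 0, between TAPBP at 0.16 and DMA at 0.33.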

How the data were processed

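RNA sequencing of ileum gave 6 libraries, grouped by their titles into MP and CT. Tools listed in the submitters' processing notes, without their roles, are fastp (0.18.0), HISAT2, Bowtie2, DESeq2, and StringTie (1.3.1). Coordinates are left out: the build is not given here by any source used. Per the labels' protocols, libraries were made with a kit described as one for small RNA. The authors deposited FPKM values and estimated counts, per the file headers in 1 column per group. That each is a mean of 3 libraries is read from the values, of which 100% end in 0, 3 or 7 at the third decimal. Another 4 columns of values, of groups that are no sample here, were not used. Of mean counts, 90.2% in MP and 89.9% in CT were whole after multiplication by 3 (within 0.002).

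The fixed design kept a count test only for a table with values per library; group means allow none. Differences are of log2(FPKM + 1), a scale that understates those of low genes. Count ratios use counts multiplied by 3, rounded and divided by the depth ratio of 0.929, with Clopper-Pearson intervals conditional on the sum of both counts. Lists, matched by symbol, used genes that reached 1 FPKM in MP or CT, and counts of members used 5 FPKM. All 10 members were named; from each list up to 4 genes with the largest mean FPKM and those past 1.5-fold could be named, and 1 gene that this rule allows is not reported here. RFXANK, TAPBP and BRD2 were chosen after their values were seen, as was the order along the MHC. Members and lists were chosen with earlier results of these data known. Python 3.11.15, pandas 2.3.3 and SciPy 1.17.1 were used, and the steps were tested on simulated data.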

Additional observations from a re-analysis of the deposited data

How the results depend on the processing

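No paired analysis was possible because each column is the mean of a group; for the same reason libraries could not be left out in turn. The choice of members matched by symbol only was added after seeing the data. Members higher in MP by at least 0.32 in log2 numbered 1, and 2 with median-of-ratios and with upper-quartile scaling (DMA and DMB1), 0 with equal FPKM totals and 0 among members matched by symbol only. The median of the members was 0.107, against 0.184 with median-of-ratios scaling, 0.157 under upper-quartile scaling and 0.048 after making FPKM totals equal; these scalings shift the median of all genes by 0.07, 0.05 and -0.06. The share of BLB1 in the BLB1 and BLB2 pair was 63.3% in MP and 58.0% in CT in counts, against 60.0% and 53.9% in FPKM. The share of DMB1 in its pair was 53.8% in MP and 52.2% in CT in counts, against 39.1% and 37.3% in FPKM; counts are not divided by transcript length. Of 70 recomputed member differences, 47 stayed within the counting error and 23 moved beyond it, with 1 change of sign (IFI30, 0.02 with median-of-ratios scaling). For each member, 1 of the recomputations that stayed summed all rows of its symbol. It could not move the value, because no member had a second row. Recomputations that added 0.1 or 0.5 to FPKM in place of 1 all stayed as well. They could hardly move the more abundant members: with 0.1, DMB1 went from 0.293 to 0.296 and CIITA from -0.212 to -0.224. All 23 that moved came from another scaling or, for BLB2, also from depth-scaled counts (-0.222). The count of 47 is therefore no measure of stability under scaling. Of 78 recomputed medians of the other lists, 61 moved by no more than the typical counting error of a single gene in the list, and 8 changed sign. That limit is wider for lists of genes with few reads, and a median near 0 could change sign within it. Among the 78 recomputed medians, a changed minimum FPKM could not move a list in which it added or removed no gene. Depth limits RFX5, with 17 reads in MP and 12 in CT, and for all members the spread between birds is unknown.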

Other observations

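Class II beta chain loci outside the members had few or no reads assigned to them in this tissue. These loci were chosen after their values were seen. Whether reads shared with similar copies such as BLB1 and BLB2 were assigned elsewhere was not tested. The locus described as BLB3 (ENSGALG00000034319) was listed at 0 in both groups. A locus described as B-L beta chain-like 2 (ENSGALG00000044502) had 0.227 FPKM in MP and 0.127 in CT, from 9 and 5 reads over the 3 libraries of each group.

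The count per FPKM, which follows transcript length and depth, had an MP to CT ratio with a median of 0.929 over 12826 genes and quartiles of 0.925 and 0.934. Among the members this ratio ran from 0.922 for BLB1 to 0.945 for BLB2, so that the BLB2 level differed by a count ratio of 0.857 and by -0.25 in log2 FPKM, and by -0.22 in log2 of the depth-scaled counts.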
